A study of Bos taurus with 6 samples.

Results

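The leukocyte integrins and adhesion molecules are receptors and ligands by which white blood cells hold on to the vessel wall, to matrix and to each other. The genes described are ITGAL, ITGAM, ITGB2, ITGA4, ITGB1, ITGB7, SELPLG and ICAM1, and ITGAX is not analysed here. A probe was taken as a member when the array's own annotation named 1 of these genes as its target. The rule found 8 of the 9 genes searched, out of 15379 named genes on the array, read by 25 of its 43653 probes (controls not counted). Of these 25 probes, 24 passed the filter for signal above background in 3 or more animals and were tested, among 26823 in all. Whole blood, drawn at the jugular vein, was profiled from 6 female cattle, each on its own 1-colour Agilent bovine array. The 3 fat-1 animals carried the fat-1 transgene, whose product is a nematode enzyme that turns omega-6 into omega-3 fatty acids, and the 3 wild type animals did not. All animals were 3 years of age except fat-1 replicate 1, at 3.5 years. The promoter of the transgene and the founder of the line are not given in the sources used here, and the array carries no probe named for it, so its transcript could not serve as a check of genotype.

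Integrins are pairs of an alpha and a beta chain. The beta-2 chain ITGB2 pairs with ITGAL to form LFA-1 and with ITGAM to form Mac-1, and both pairs bind ICAM1 on other cells. The alpha-4 chain ITGA4 pairs either with ITGB1, as a receptor for VCAM1 and fibronectin, or with ITGB7, as a receptor for MADCAM1 on vessels of the gut. SELPLG is the ligand on leukocytes through which they roll on P-selectin before integrins hold them.

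No member passed the test across the array, and the groups stood apart at 25.0% of the member probes tested, against 19.6% of all probes. In fat-1 blood 1 of 3 ICAM1 probes and all 3 of ITGB7 were lower in every animal than in any wild type animal. Both probes of ITGB1 were higher. The 6 ITGB2 probes had differences of -0.04 to 0.05 on the log2 scale. Of the 24 probes, 0 passed an adjusted p of 0.05 in limma, against 0.171% of all probes tested. At an unadjusted p under 0.05 the count was 5, which is 20.8% of the 24, against 12.8% of all probes. Of these 5 probes, 2 were higher in fat-1 blood, against 6.11% of all probes, and 3 were lower, against 6.71%. At 6 probes, 25.0% of the 24, the ranges of the groups were apart, 2 with fat-1 higher and 4 with fat-1 lower, against 19.6% of all probes. Differences were above 0 at 17 probes and below 0 at 7, and the median over all probes tested was -0.06. The adjusted count was 1, the ICAM1 probe from base 2867, when only probes above background on all 6 arrays were tested (adjusted p = 0.0447), and to 6 with array weights in the fit, a setting that also took the count over all probes from 46 to 2028.

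Each group was hybridised on a slide of its own and scanned separately, so genotype cannot be told apart from slide in any value given here. The 75th percentile of intensity ran from 610 to 1065 over the arrays, and 58.4% to 63.4% of probes were well above background. Differences were -0.21 for ACTB, -0.14 for GAPDH and -0.26 for PPIA, which serve as reference genes. P-values measure the spread between these 6 animals only. Fewer cells of a type and less RNA per cell cannot be told apart in whole blood.

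**Figure D1:**
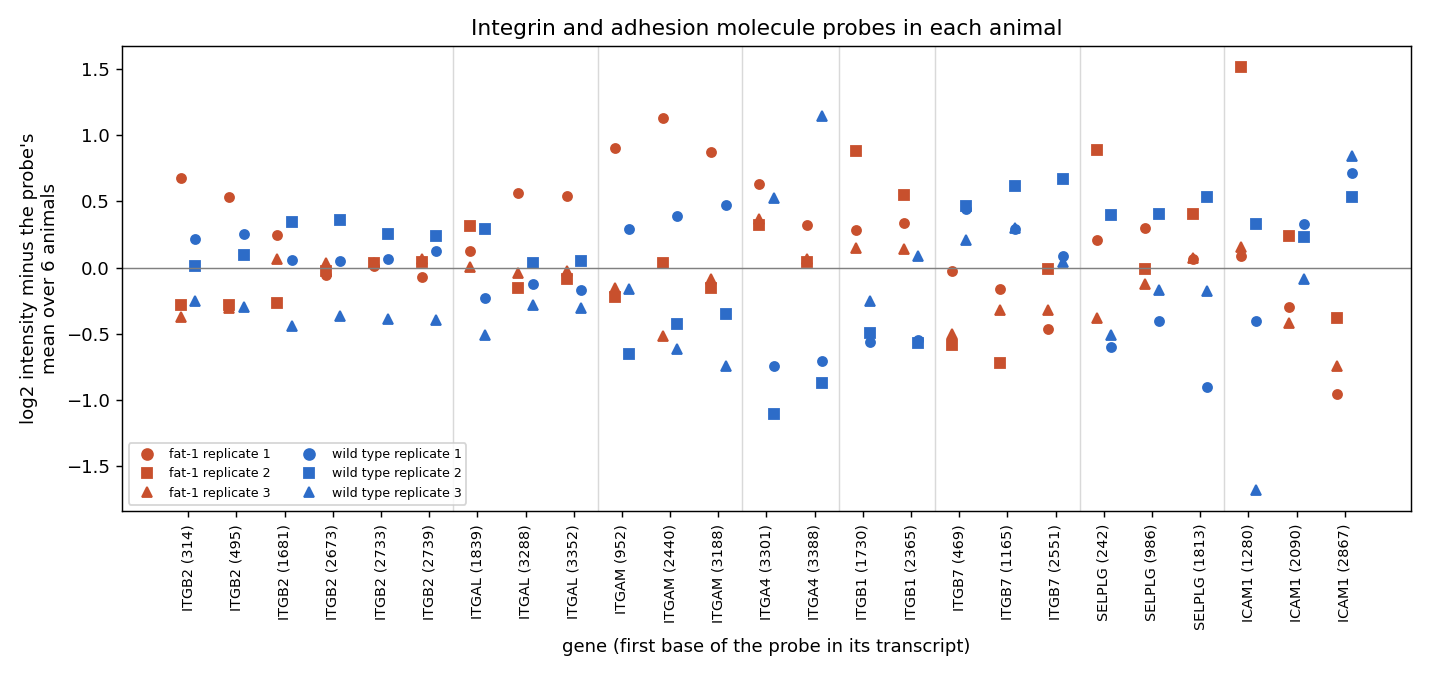
Log2 intensity of every member probe in each animal, as the distance from the mean of that probe over the 6 animals. Probes are ordered by gene and by the first base of the probe in its transcript. The wild type points lie above the fat-1 points at ITGB7 and at the ICAM1 probe from base 2867, and below them at ITGB1.

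ICAM1, the ligand of the beta-2 integrins, was read by 3 probes, and their group differences were unlike. The probes are named here by their first base in the transcript (1280, 2090 and 2867). They lie on chromosome 7 of the build Btau_3.1, plus strand, at chr7:13284996-13285056, chr7:13286098-13286157 and chr7:13286875-13286934. Exons and introns were not assigned, as no annotation of that build was used. They do not overlap, and their GC content was 53.3%, 55.0% and 45.0%. The sequences are shown because the probes of this gene gave different results, with the last cut to its first 30 bases.
ICAM1 (1280): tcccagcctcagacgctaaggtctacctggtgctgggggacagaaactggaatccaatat
ICAM1 (2090): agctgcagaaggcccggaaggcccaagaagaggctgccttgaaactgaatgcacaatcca
ICAM1 (2867): gccaagctgctttctcccagaaagggatta

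At the probe from base 2867, ICAM1 had log2 levels, relative to the 75th percentile of each array, of -4.08, -3.50 and -3.87 in fat-1 replicates 1 to 3 and of -2.41, -2.59 and -2.28 in wild type replicates 1 to 3. Every fat-1 animal was below every wild type animal. This was the only ICAM1 probe well above background on all 6 arrays, though its fat-1 intensities were low, at 42.4 to 72.8. The mean level was -3.82 ± 0.29 (SD, n = 3) in fat-1 and -2.43 ± 0.16 in wild type blood, a 2.62-fold lower mean intensity in fat-1 blood. The difference of -1.39 ± 0.23 (SE) had a 95% interval of -1.91 to -0.86, with an unadjusted p of 0.000254 and an adjusted p of 0.0770 in limma. It ranked 88th of all probes by p. Its unadjusted p stayed under 0.05 in each of the 15 alternative settings run, with differences of -1.55 to -1.08.

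At the probe from base 2090, ICAM1 levels were -4.61, -4.07 and -4.73 in fat-1 and -3.98, -4.08 and -4.40 in wild type replicates. The groups overlapped, and fat-1 replicate 2 lay among the wild type animals. The difference was -0.32 ± 0.25, with an interval of -0.89 to 0.25 (limma, unadjusted p = 0.237, adjusted p = 0.548), and -0.52 to -0.19 with each array left out. The probe was well above background in 2 animals of each group, at intensities of 29.2 to 44.3 in fat-1 and 36.1 to 47.1 in wild type blood.

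At the probe from base 1280, ICAM1 was above background in too few animals to be tested. It was well above background in fat-1 replicates 2 and 3, at intensities of 70.6 and 39.3, and in no wild type animal, where intensities were 18.5, 25.4 and 9.15. Fat-1 replicate 1, at 25.2, was not above background either, so no fold is given. The groups overlapped, since wild type replicate 2 stood at -4.59, above fat-1 replicates 1 and 3.

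**Figure D2:**
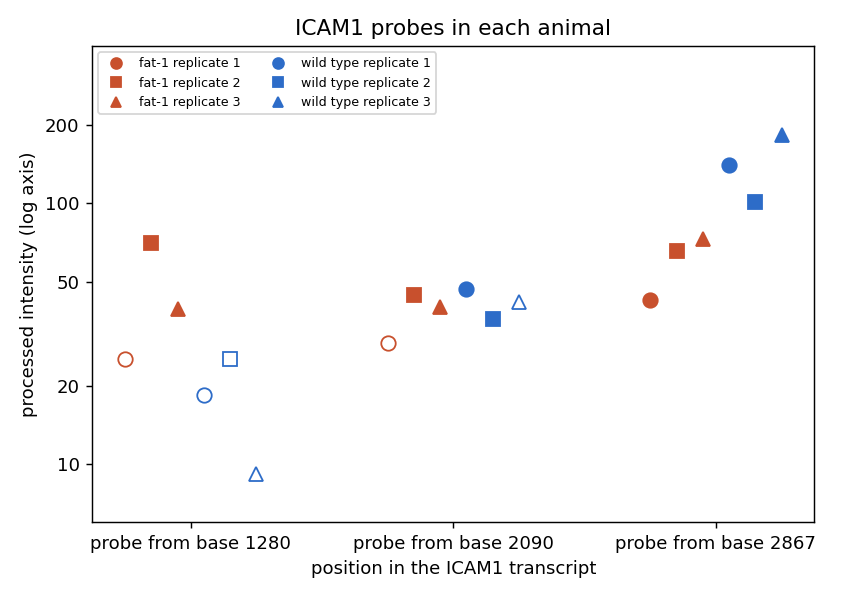
Processed intensity (log axis) of the 3 ICAM1 probes in each animal, named by first base in the transcript. Filled points were well above background and open points were not. Only at the probe from base 2867 do the groups separate, at 42.4 to 72.8 in fat-1 and 101 to 182 in wild type animals.

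The ICAM1 probes were compared within each animal, where scaling between arrays has no part. The value of the probe from base 2867 minus that of the probe from base 2090 was 0.54, 0.57 and 0.86 in fat-1 and 1.57, 1.48 and 2.12 in wild type replicates. The 3 fat-1 values lay below the 3 wild type values. The means of 0.65 ± 0.18 (SD, n = 3) and 1.72 ± 0.34 differed by -1.07 (two-sided exact permutation p = 0.10, the smallest that 3 against 3 animals allows). For the probe from base 2867 minus that from base 1280 the group difference was -2.56, and for 2090 minus 1280 it was -1.49, each with an exact permutation p of 0.10 and an adjusted p of 0.10 over the 3 pairs. The last pairs rest on a probe that was not well above background in wild type blood. With normexp background correction the first contrast was -0.59, a smaller gap between the probes. Which of the probes follows the level of the ICAM1 transcript was not tested.

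The genes whose levels ran most like those of each ICAM1 probe over the 6 animals were not the same. Among 9861 named genes, the 5 highest Pearson correlations with the probe from base 2867 were those of LNX2 (0.993), OSBPL6 (0.985), LOC768028 (0.981), CD200 (0.980) and FSTL1 (0.975). For the probe from base 2090 they were B3GNT3 (0.989), KLHL18 (0.982), CHD2 (0.979), PTP4A3 (0.971) and UBE4B (0.959). For the probe from base 1280 they were LRRC29 (0.977), LRRC8D (0.975), IQGAP1 (0.975), TCAF2 (0.973) and METRNL (0.968). These are descriptions over 6 arrays that share their scaling, with no test.

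ITGB2, the beta-2 chain that LFA-1 and Mac-1 share, was read by 6 probes on chromosome 1, and the group means lay close together at each. Differences ran from -0.04 to 0.05 with 95% intervals between -0.70 and 0.73 (limma, unadjusted p from 0.837 to 0.952). At the probe from base 2739, ITGB2 levels were 7.09, 7.20 and 7.22 in fat-1 and 7.28, 7.40 and 6.76 in wild type replicates. Fat-1 animals lay between the wild type animals, of which replicate 3 was lowest. The probes from bases 2733 and 2739 share 54 bases and are not separate readings. The sign of these differences turned with the scaling, the background correction, the array weights or an array left out. The genes most like the probe from base 2739 over the 6 animals were POLR1H (Pearson 0.990), BoLA-DRB3 (0.986), BAX (0.983), C21H15orf40 (0.983) and EDEM1 (0.981).

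ITGAL, the alpha chain of LFA-1, had differences of 0.25 to 0.29 at its 3 probes on chromosome 25 (limma, unadjusted p from 0.281 to 0.356), with 95% intervals between -0.33 and 0.88. Base 1839 is counted on another ITGAL transcript record than bases 3288 and 3352. On the plus strand the probe from base 1839 starts at 28529654, past the other starts at 28527799 and 28528354. At the ITGAL probe from base 1839, levels were 5.75, 5.94 and 5.63 in fat-1 and 5.40, 5.92 and 5.12 in wild type replicates. Wild type replicate 2 lay within the fat-1 range. Without that animal the difference was 0.52 (unadjusted p = 0.0434), and without wild type replicate 3 it was 0.11. At the other ITGAL probes fat-1 replicate 1 was highest, at 0.48 and 0.49. Without it their differences were 0.02 at base 3288 and 0.08 at base 3352.

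ITGAM, the alpha chain of Mac-1 on neutrophils, monocytes and other myeloid cells, had differences of 0.35 to 0.43 at its 3 probes (limma, unadjusted p from 0.308 to 0.363), with 95% intervals between -0.57 and 1.44. These probes have no position in the array's annotation. At the ITGAM probe from base 2440, levels were -1.49, -2.59 and -3.14 in fat-1 and -2.23, -3.05 and -3.24 in wild type replicates. Fat-1 replicate 1 was the highest animal at each ITGAM probe, and the groups overlapped. Without it the differences at the probes from bases 952 and 2440 were -0.01 and -0.02. With array weights ITGAM differences were -0.10, -0.10 and -0.19.

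ITGB1, the beta-1 chain of the alpha-4 receptor for VCAM1 and fibronectin and of many matrix receptors, was higher in each fat-1 animal than in each wild type animal at both of its probes. The probes start at bases 1730 and 2365 and lie on chromosome 13, at chr13:19269159-19269432 and chr13:19273035-19278848. Those spans are 274 and 5814 bases for probes of 60 bases, so each alignment is split. The sequences of both are shown as the pair of separate readings of this gene.
ITGB1 (1730): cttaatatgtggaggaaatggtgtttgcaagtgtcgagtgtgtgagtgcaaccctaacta
ITGB1 (2365): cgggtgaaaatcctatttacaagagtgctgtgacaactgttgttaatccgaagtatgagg

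At the ITGB1 probe from base 1730, levels were -0.62, -0.02 and -0.76 in fat-1 and -1.47, -1.40 and -1.16 in wild type replicates. Fat-1 replicate 2 was highest and the other fat-1 animals were closer to the wild type range. The difference was 0.88 ± 0.25, or 1.84-fold, with an interval of 0.30 to 1.46 (limma, unadjusted p = 0.00807, adjusted p = 0.271). At the ITGB1 probe from base 2365, levels were 0.16, 0.37 and -0.04 against -0.73, -0.75 and -0.09. Wild type replicate 3 lay just below the lowest fat-1 animal. The difference there was 0.69 ± 0.25, or 1.61-fold, with an interval of 0.10 to 1.27 (limma, unadjusted p = 0.0260, adjusted p = 0.356). Without fat-1 replicate 1 or 2, or wild type replicate 1 or 2, the unadjusted p at base 2365 was 0.0577, 0.0913, 0.0991 and 0.0677.

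ITGB7, the beta-7 chain of the receptor that directs lymphocytes to the gut, was lower in each fat-1 animal than in each wild type animal at all 3 probes. They start at bases 469, 1165 and 2551 and lie on chromosome 5, at chr5:29751381-29751440, chr5:29753968-29755023 and chr5:29757939-29757998. The sequences are shown because these are 3 separate readings that lie apart along the gene, with the last cut to its first 30 bases.
ITGB7 (469): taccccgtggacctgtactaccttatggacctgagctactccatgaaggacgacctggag
ITGB7 (1165): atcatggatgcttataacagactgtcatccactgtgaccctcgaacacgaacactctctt
ITGB7 (2551): tacctcacgaggagtgggggctctcccagc

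At the ITGB7 probe from base 1165, levels were -0.10, -0.66 and -0.26 in fat-1 and 0.35, 0.68 and 0.36 in wild type replicates. The nearest animals of the groups were fat-1 replicate 1 and wild type replicate 1. The difference was -0.80 ± 0.23, a 1.74-fold lower mean, with an interval of -1.33 to -0.27 (limma, unadjusted p = 0.00827, adjusted p = 0.273). At the ITGB7 probe from base 469, levels were -0.01, -0.57 and -0.49 against 0.46, 0.48 and 0.22, with a difference of -0.74 ± 0.23 (limma, unadjusted p = 0.0117, adjusted p = 0.303). Without fat-1 replicate 2 the unadjusted p at that probe was 0.0511. At the ITGB7 probe from base 2551, levels were 5.49, 5.94 and 5.63 against 6.04, 6.62 and 5.99, and wild type replicate 2 was highest. The difference there was -0.53 ± 0.25, with an interval of -1.10 to 0.04 (limma, unadjusted p = 0.0656, adjusted p = 0.407). Leaving out wild type replicate 2 gave -0.33, and wild type replicate 3 gave -0.64 (unadjusted p = 0.0477).

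ITGA4, the alpha chain that pairs with both of these beta chains, was read by probes from bases 3301 and 3388 on the minus strand of chromosome 2. At the ITGA4 probe from base 3301, levels were -1.01, -1.32 and -1.28 in fat-1 and -2.39, -2.75 and -1.12 in wild type replicates. Wild type replicate 3 lay among the fat-1 animals and the other wild type animals lay below them. The difference was 0.89 ± 0.39, with an interval of -0.02 to 1.79 (limma, unadjusted p = 0.0537, adjusted p = 0.391). It was 1.37 without wild type replicate 3 (unadjusted p = 0.000601, adjusted p = 0.0894), 0.55 without wild type replicate 2 (unadjusted p = 0.187) and 0.50 with normexp background correction. The ITGA4 probe from base 3388 was well above background in 3 fat-1 animals and 1 wild type animal, with a difference of 0.29 ± 0.49 and, with normexp background correction, of -0.47.

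The opposite signs at ITGB1 and ITGB7 were set against each other within each animal, a comparison chosen after both were seen. The mean of the ITGB1 probes minus the mean of the ITGB7 probes was -2.03, -1.39 and -2.03 in fat-1 and -3.39, -3.67 and -2.81 in wild type replicates. The groups could not overlap here, since both genes had been chosen for that, and no test is given. The group means differed by 1.47, and by 1.24 to 1.71 under the other settings run.

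**Figure D3:**
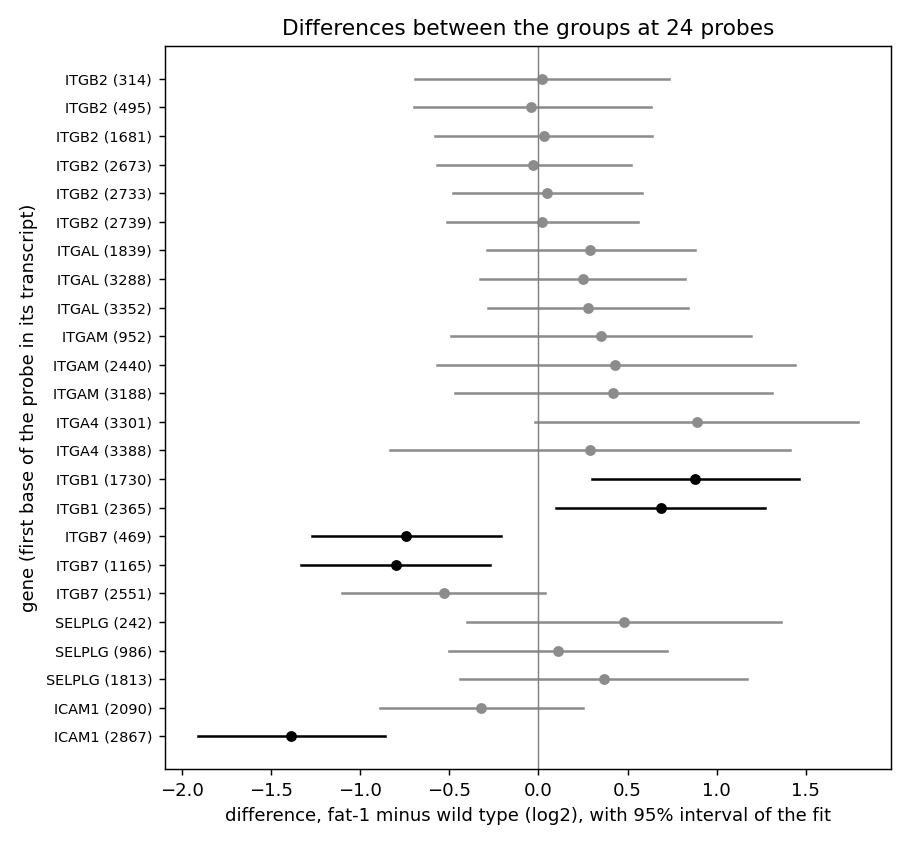
Difference between the groups (fat-1 minus wild type, log2) at the 24 probes tested, with the 95% interval of the limma fit. Black marks the 5 probes with an unadjusted p under 0.05, which are 1 of ICAM1, 2 of ITGB1 and 2 of ITGB7. The 6 ITGB2 probes lie between -0.04 and 0.05.

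SELPLG, the leukocyte ligand of P-selectin, had differences of 0.11 to 0.48 at 3 probes on chromosome 17 (limma, unadjusted p from 0.247 to 0.686), with 95% intervals between -0.50 and 1.36. At the SELPLG probe from base 1813, levels were 3.89, 4.23 and 3.90 in fat-1 and 2.92, 4.36 and 3.65 in wild type replicates. The groups overlapped, as wild type replicate 2 was highest and wild type replicate 1 lowest. These differences moved with single animals. At base 1813 the difference was 0.01 without wild type replicate 1, 0.72 without wild type replicate 2 (unadjusted p = 0.0357) and 0.99 with array weights (unadjusted p = 0.00516, adjusted p = 0.0554). At base 242 leaving out fat-1 replicate 2 gave 0.15, fat-1 replicate 3 gave 0.79, wild type replicate 1 gave 0.30 and wild type replicate 2 gave 0.80, while array weights gave 0.87 (unadjusted p = 0.0184). At base 986 its sign turned when fat-1 replicate 1 or wild type replicate 1 was left out.

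Other genes of leukocyte adhesion were read in 5 lists with 1 probe a gene, the brightest. None of the 63 genes tested passed an adjusted p of 0.05 in limma. At an unadjusted p under 0.05, 5.50% of the 10778 named genes were higher in fat-1 blood and 6.43% were lower. Of the 63 genes, 2 were higher and 4 were lower, together 9.52%, against 12.8% of all probes tested in either direction. The median difference of the 63 genes was -0.04, and -0.08 over all named genes. Without wild type replicate 3 the count at an unadjusted p under 0.05 was 11, and with array weights it was 20.

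Among other integrin subunits, 9 of 12 were tested, with 1 higher, 1 lower and a median of 0.40, which was -0.24 with normexp. ITGAE, the alpha-E chain that pairs with ITGB7 and binds E-cadherin on epithelium, had levels of -0.59, -0.29 and -0.34 in fat-1 and 0.24, 0.85 and 0.31 in wild type replicates. As at ITGB7, every fat-1 animal was below every wild type animal. The groups did not overlap at 1 of the 9 genes of this list. In the 5 lists together that was so at 10 of 63 genes, against 19.6% of all probes. The ITGAE difference was -0.88 ± 0.24 (limma, unadjusted p = 0.00582, adjusted p = 0.248). ITGB5, a chain that pairs with the alpha-V subunit, had a difference of 0.86 ± 0.38 (unadjusted p = 0.0490) and 0.85 at its other probe.

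Of the immunoglobulin-family ligands and junction proteins 11 of 12 were tested, with 1 higher, 1 lower and a median of 0.26, which was -0.08 with normexp. F11R, the junctional molecule JAM-A that LFA-1 can bind, had a difference of 0.95 ± 0.28 (limma, unadjusted p = 0.00855), and of 0.68 and -0.29 at its other probes. ICAM5, a relative of ICAM1, had -0.57 ± 0.24 (unadjusted p = 0.0419). The ICAM1 relatives ICAM2, ICAM3 and ICAM4 had 0.00, 0.26 and 0.35, and VCAM1, the ligand of alpha-4 beta-1, had 1.06 (unadjusted p = 0.168). These last 4 were chosen after their values were seen. VCAM1 levels were -4.09, -4.04 and -3.91 in fat-1 and -4.34, -7 and -3.86 in wild type replicates. Wild type replicate 2 was far the lowest, and VCAM1 was well above background in only 2 wild type animals.

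Of the selectins and the enzymes that make their ligands 10 of 13 were tested, with 0 higher, 1 lower and a median of -0.22. TPST1, a sulfotransferase that modifies tyrosines, as in SELPLG, had -0.47 ± 0.20 (limma, unadjusted p = 0.0462). The list of inside-out activation holds genes that regulate the switch of integrins to the binding state. Of its 17 genes 16 were tested, with 0 higher and 0 lower at an unadjusted p under 0.05 and a median of -0.06. The smallest p values there were those of RAP1B, a small GTPase that activates integrins, at 0.53 ± 0.24 (unadjusted p = 0.0556), and of CYTIP, at 0.53 ± 0.27 (unadjusted p = 0.0822). Of outside-in signalling 17 of 18 were tested, with 0 higher, 1 lower and a median of -0.04. The one lower was BCAR1, a docking protein of focal adhesions, at -1.12 ± 0.38 (unadjusted p = 0.0179).

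Markers of blood cell types were read in the same animals in 10 lists of 103 tested genes. None passed an adjusted p of 0.05 in limma. At an unadjusted p under 0.05, 5.50% of named genes were higher and 6.43% were lower. Among the markers 7 were higher and 10 were lower, together 16.5%, against 12.8% of all probes tested in either direction. For 3 of these 17 calls, CR2, VWF and SLC4A1, 1 group had no animal well above background, so they passed the filter through the other group alone. Their folds are bounds on processed intensity, with each dim array counted at its faintest probe well above background, or at the gene itself where that was brighter. Of the markers of gamma-delta T cells, a lymphocyte class that is large in cattle, 9 of 12 were tested, with 0 higher, 6 lower and a median of -1.18. The mean over this list ran from -1.15 to -0.02 in fat-1 and from 0.31 to 0.77 in wild type animals, and the median was -0.66 without fat-1 replicate 1. Its named genes were SOX13 (-1.50), WC1.3 (-1.52), TRGC6 (-1.45) and CD163L1 (-1.45). Of these, SOX13 and TRGC6 were well above background in only 2 fat-1 animals. With only probes above background on all 6 arrays, 7 genes of the list were left and their median was -0.85. Gamma-delta T cell markers, ITGB7 and ITGAE were each lower in the fat-1 group. Among wild type animals, replicate 2 stood highest for these markers (0.77) and for ITGAE (0.85). The same animal was highest at the ITGB7 probes from bases 469, 1165 and 2551 (0.48, 0.68 and 6.62). Among fat-1 animals, replicate 1 stood lowest and replicate 2 highest for these markers (-1.15 and -0.02) and for ITGAE (-0.59 and -0.29). The same order held at the ITGB7 probe from base 2551 (5.49 and 5.94). At the ITGB7 probes from bases 469 and 1165, fat-1 replicate 1 stood highest of that group (-0.01 and -0.10) and fat-1 replicate 2 lowest (-0.57 and -0.66). The part of these markers in the ITGB7 and ITGAE differences was not tested.

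Alpha-beta T cell markers had 17 of 18 tested, with 1 lower, TCF7 (-0.81), and a median of -0.19, and animal means ran from -0.36 to 0.13 in fat-1 and from -0.19 to 0.39 in wild type blood. NK and cytotoxic markers had 11 of 12 tested, with 2 higher, KLRK1 (0.90) and GZMA (1.3), and 2 lower, KLRB1 (-1.35) and NCR1 (-0.82). Their means ran from -0.31 to 0.58 and from -0.54 to 0.23. B cell markers had 10 of 13 tested, with 1 higher, CR2 (at least 1.18-fold), and means of -0.38 to 0.29 and -0.35 to 0.56. The part of these lymphocyte lists in the values of ITGAL, ITGA4 and ITGB7 was not tested.

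Monocyte markers had 17 of 17 tested, with 1 higher, the chemokine receptor CX3CR1 (0.69), a median of 0.44 and 15 differences above 0. The list mean ran from -0.10 to 0.33 in fat-1 and from -0.32 to -0.10 in wild type animals. Platelet markers had 7 of 13 tested, with 1 higher, PPBP (0.50), a median of 0.50, and means of -0.12 to 0.48 against -0.46 to 0.09. The medians of both lists were above 0, as were the differences at ITGB1 and ITGAM, and their part in those values was not tested. Neutrophil markers had 11 of 21 tested, with 0 higher, 0 lower and a median of -0.03. The smallest p values were those of ELANE (-0.84, unadjusted p = 0.0569) and PGLYRP1 (-0.81, unadjusted p = 0.0727). The neutrophil markers CXCR1, CXCR2, ALPL, CAMP, CTSG and TCN1 were well above background on 0 of the 6 arrays. The neutrophil mean ran from -0.33 to 0.12 in fat-1 animals and was -0.20, 0.82 and -0.32 in wild type replicates 1 to 3.

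Red cell markers had 10 of 10 tested, with 7 differences above 0 and a median of 0.94, which was 0.34 with normexp. EPB42 was higher (1.35) and SLC4A1 lower (at least 1.46-fold). Red cell means ran from 0.02 to 0.69 in fat-1 and from -1.15 to 1.07 in wild type animals. Eosinophil markers had 3 of 10 tested, with 0 called in either direction. Its values with the smallest p were those of CCR3 (0.55) and GATA1 (0.42). Endothelial markers had 8 of 13 tested, with VWF higher (at least 2.80-fold), and means of 0.00 to 0.24 against -0.45 to 0.01. SELE, the selectin of activated endothelium, was well above background on 0 arrays. The part of endothelial RNA in the ICAM1 values was not tested.

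**Figure D4:**
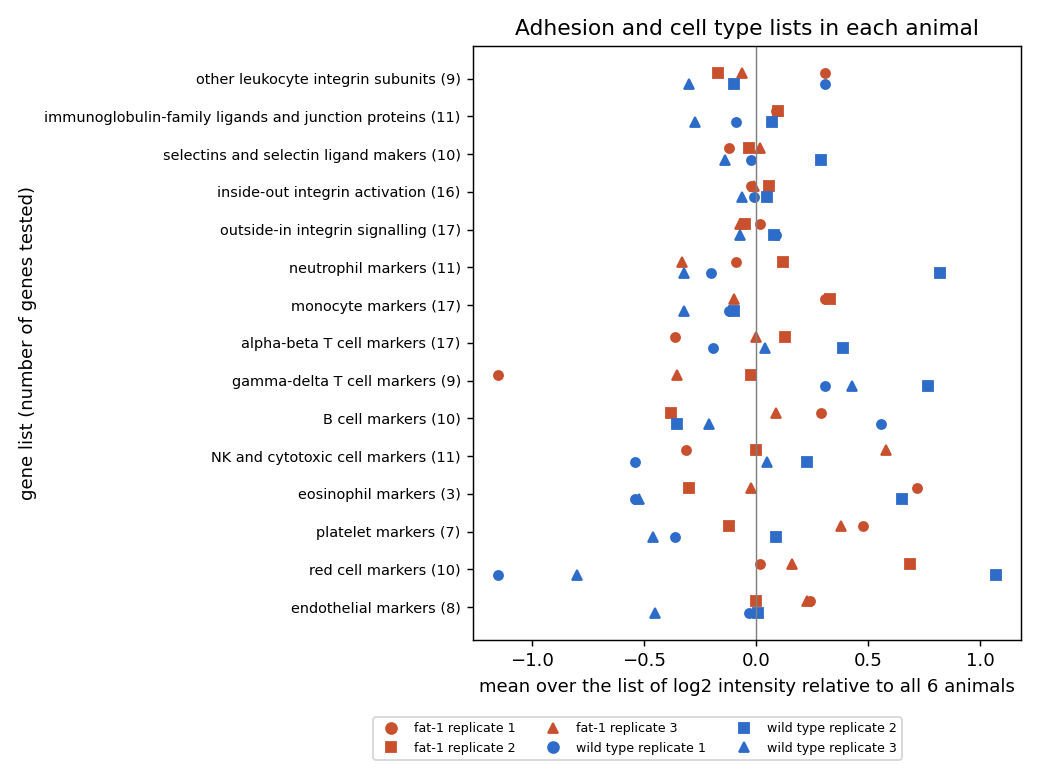
Mean log2 intensity over each adhesion and cell type list in each animal, relative to the 6 animals, with the number of genes tested in brackets. The groups do not overlap at gamma-delta T cell markers, where fat-1 animals lie between -1.15 and -0.02 and wild type animals between 0.31 and 0.77.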

How the data were processed

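Whole blood RNA of 6 animals was labelled with Cy3 as cRNA and read on 1-colour arrays. The authors made the spot intensity values with Agilent Feature Extraction (version 10.7.1.1 in the submitters' processing notes). Per the file headers these are background-subtracted and not scaled between arrays. Flags, as deposited, are 0 or 1 (other values not used). The authors' value table holds log2 values, quantile-normalized as deposited, and was used as an alternative. Each of its columns was matched to its own array by rank correlation, of 1 against 0.973 or less for other arrays.

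On the log2 scale, the 75th percentile of the non-control probes of an array was subtracted from its values. Spots flagged as outliers were masked, which left out 32 probes, and a probe was kept when 3 or more of the 6 arrays had it well above background. Groups were compared in R 4.3.3 by limma 3.58.1 (lmFit, then eBayes) on group alone, and p-values were adjusted by Benjamini-Hochberg over 26823 probes, at a threshold of 0.05. The fit was tested on simulated data. Differences are fat-1 minus wild type. Gene symbols came from the RefSeq table of ARS-UCD2.0 by accession for 20595 probes, by symbol for 10745 and by older symbol for 376, while 603 kept the file's name and 11334 had none. Probe sequences and positions are those of the deposited files. Precision is limited by the number of arrays.

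The members and lists were chosen with earlier results of these data known. Every member probe is described. Of each list, up to 4 genes with the smallest unadjusted p under 0.05 are named, or the 2 with the smallest p where none was. For each ICAM1 probe and the brightest ITGB2 probe the 5 most correlated named genes, measured on all 6 arrays, are given. Alternatives were quantile or median scaling, normexp with an offset of 50, other filters on dim probes, an intensity trend, array weights, the authors' table, each array left out, the replicate number as a block, and all probes of a gene averaged.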

Additional observations from a re-analysis of the deposited data

How the results depend on the processing

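Leaving out each array gave 3 to 8 member probes with an unadjusted p under 0.05 (5 with all arrays, 3 when fat-1 replicate 2 and 8 when wild type replicate 3 was left out), 0 past an adjusted p of 0.05, ICAM1 contrasts of -1.19 to -0.87, 4 to 11 pathway genes and 15 to 31 marker genes, the last without wild type replicate 2. With array weights the counts were 9 member probes, 6 of them past an adjusted p of 0.05, 20 pathway genes and 49 marker genes. Testing only probes above background on all 6 arrays put 1 member probe past that threshold. Without a filter 3 pathway genes were counted. Marker genes were 26 with quantile scaling and with the authors' table and 31 with an intensity trend. The causes were not tested.

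Signs turned at ITGB2 probes. With quantile scaling and with the authors' table the probe from base 2673 had 0.20. With median scaling those from bases 2739, 1681 and 314 had -0.02, -0.01 and -0.02. With normexp those from bases 2673 and 314 had 0.06 and -0.01. With array weights those from bases 2739, 2733, 1681 and 314 had -0.07, -0.01, -0.06 and -0.21. Normexp gave -0.15 for the ITGAM probe from base 3188 and -0.47 for the ITGA4 probe from base 3388. Array weights gave -0.19, -0.10 and -0.10 for ITGAM. With each array left out, ITGB2 differences by first base ran from -0.31 to 0.21 (314), -0.31 to 0.10 (495), -0.19 to 0.21 (1681), -0.21 to 0.15 (2673), -0.14 to 0.19 (2733) and -0.17 to 0.15 (2739). They ran from -0.01 to 0.59 (952) and -0.02 to 0.80 (2440) for ITGAM, from -0.08 to 0.93 for ITGA4 (3388) and from -0.06 to 0.34 for SELPLG (986). All settings run left ICAM1 at base 2867, ITGB7 and ITGB1 with the same sign. The same held for ITGAL, ICAM1 at base 2090, ITGA4 at base 3301 and SELPLG at bases 242 and 1813.

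With the replicate number as a block the ICAM1 contrast was -1.07 (exact p = 0.250 by sign flips), and 7 member probes, 7 pathway genes and 30 marker genes had an unadjusted p under 0.05. Deviations of animals with the same number correlated at 0.12, 0.19 and 0.01, so the numbers were not taken to pair animals. Low signal limits the ICAM1 probes from bases 1280 and 2090, the ITGA4 probe from base 3388 and the ITGAM probe from base 3188. The ICAM1 probe from base 2867 was also dim in fat-1 blood. Its level in fat-1 replicate 1 was -4.08, where the faintest probe well above background on that array stood at -4.54.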
